A study of Mus musculus with 4 samples.

Results

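The Wnt pathway genes described here were 44 of the 21000 protein-coding mouse genes with a curated RefSeq start site. They were listed by name, as members of the pathway. The set held 19 Wnt ligands, 10 Frizzled receptors, the co-receptors Lrp5 and Lrp6, 7 secreted inhibitors of the Sfrp and Dkk families, the transducers Ctnnb1 and Axin2, and the 4 TCF factors Tcf7, Tcf7l1, Tcf7l2 and Lef1. All 44 were found in the annotation.

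Wnt ligands are secreted lipid-modified proteins that bind a Frizzled receptor together with Lrp5 or Lrp6. Binding stops the breakdown of β-catenin, the product of Ctnnb1, which then enters the nucleus and activates genes with the TCF factors, while other ligands such as Wnt5a signal largely without β-catenin. In adipose tissue β-catenin signalling holds precursor cells back from becoming adipocytes, Wnt10b is a known ligand with that effect, and Sfrp5 is an inhibitor secreted by adipocytes.

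The series measured open chromatin by ATAC-seq, in which a transposase cuts accessible DNA and leaves sequencing adapters there. The tissue was visceral fat from mice of the outbred CD-1 stock, labelled as 8 weeks old. There were 4 libraries in 2 groups of 2. The BPA group descended from females injected into the peritoneum with the plasticiser bisphenol A at 50 mg/kg during gestation, from embryonic day 7.5 to embryonic day 13.5, and the control group from females given sesame oil. The sample titles call the BPA animals F3, while the study's text and the names of the deposited lists say F4, so the generation was not settled here. The list of BPA 2 is also numbered otherwise in its name than in its sample title. Neither sex nor batch was given. Each library came from nuclei of a whole piece of tissue, so that fewer cells of a type and less accessibility per cell cannot be told apart. The study reported that bases varying between CD-1 mice were enriched in motifs of peaks that differed between the control libraries. It proposes that such variants can alter the binding of transcription factors. Their part in the differences given here was not tested, and the sequences printed below are those of mm10, not of these animals.

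The deposited data were 1 peak list per library, with 82665 and 88911 peaks in the controls and 72375 and 98060 in the BPA libraries. Median peak widths were 567 and 456 bp in the controls and 540 and 780 bp in the BPA libraries. The lists hold no read totals, and the lowest local background recovered from the peak statistics, a floor that rises with sequencing depth, was 2.85 and 2.70 reads in the controls, 1.16 in BPA 1 and 3.80 in BPA 2. BPA 2 therefore had the highest floor, the longest list and the widest peaks, and BPA 1 the lowest floor and the shortest list. A gene is called open here when a peak lay within 500 bp of any of its start sites. The strength of a peak is given as its rank by −log10 q-value in its own list, in percent, where 0 is the best peak and 100 the last. Ranks were used because folds and q-values depend on depth. With 2 libraries against 2 no exact permutation test can give a two-sided p below 0.333, so differences between the groups are descriptions without a test.

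All 7 adipocyte markers examined, Cebpa, Pparg, Fabp4, Adipoq, Lep, Plin1 and Cidec, were open in every library, and 3 hepatocyte genes, Alb, Apoa1 and Ttr, were open in none. Of 7 precursor and fibroblast markers, 6 were open in all 4 libraries. The endothelial markers differed between the groups. Tek and Kdr were open in all 4 libraries, but Pecam1, Cdh5, Tie1, Erg and Emcn were open in both BPA libraries and neither control, so that 2 of the 7 were open in each control and 7 in each BPA library. Among leukocyte markers, Ptprc and Adgre1 were open in all 4, Cd68 in the BPA pair alone, and Cd3e and Csf1r in none. Of 3 mesothelial and 4 epithelial markers, none was open in all 4 libraries, Upk3b was open in all but BPA 2, Epcam in all but control 2, Lrrn4 and Krt8 in control 1 alone, Cdh1 in the BPA pair alone, and Msln and Krt18 in none.

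The promoter sequences that the results turn on are shown here, from GRCm38 (mm10), 5′ to 3′ on the strand of the gene, from 200 bases before a start site to 30 bases from it, with each CpG dinucleotide in capitals. The pair of Tcf7l2 starts is shown because one is rich in CpG and the other is not, Axin2 as the feedback target of the pathway, Wnt5b and Fzd7 as the ligand and the receptor whose weakest rank over the 4 libraries was the best, and Wnt2, Wnt16 and Sfrp5 because their promoters were open in the BPA pair alone.
Tcf7l2, upstream start (chr19:55741610-55741839, plus strand): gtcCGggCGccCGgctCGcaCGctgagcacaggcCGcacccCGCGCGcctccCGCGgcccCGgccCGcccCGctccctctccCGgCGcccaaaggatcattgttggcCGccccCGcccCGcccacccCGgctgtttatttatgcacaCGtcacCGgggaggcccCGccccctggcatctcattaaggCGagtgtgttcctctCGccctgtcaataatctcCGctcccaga
Tcf7l2, downstream start (chr19:55895121-55895350, plus strand): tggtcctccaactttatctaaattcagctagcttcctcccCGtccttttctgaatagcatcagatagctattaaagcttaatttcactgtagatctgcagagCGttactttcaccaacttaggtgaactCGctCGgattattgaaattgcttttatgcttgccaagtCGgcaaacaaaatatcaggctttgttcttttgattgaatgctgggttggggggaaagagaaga
Axin2 (chr11:108920149-108920378, plus strand): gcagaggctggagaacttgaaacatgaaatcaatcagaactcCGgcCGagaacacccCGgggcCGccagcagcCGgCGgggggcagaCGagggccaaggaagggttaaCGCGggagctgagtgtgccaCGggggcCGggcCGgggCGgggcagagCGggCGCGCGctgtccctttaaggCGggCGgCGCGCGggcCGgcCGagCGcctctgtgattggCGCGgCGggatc
Wnt5b, middle start (chr6:119467182-119467411, minus strand): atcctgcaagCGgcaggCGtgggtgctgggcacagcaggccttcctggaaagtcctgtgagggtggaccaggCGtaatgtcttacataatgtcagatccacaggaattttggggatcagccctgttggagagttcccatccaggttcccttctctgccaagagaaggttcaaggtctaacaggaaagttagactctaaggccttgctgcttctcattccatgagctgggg
Fzd7 (chr1:59481947-59482176, plus strand): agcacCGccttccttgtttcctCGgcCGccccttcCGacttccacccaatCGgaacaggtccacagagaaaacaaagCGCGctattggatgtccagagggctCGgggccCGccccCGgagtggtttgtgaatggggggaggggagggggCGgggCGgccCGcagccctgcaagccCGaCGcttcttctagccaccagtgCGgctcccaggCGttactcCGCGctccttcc
Wnt2 (chr6:18030416-18030645, minus strand): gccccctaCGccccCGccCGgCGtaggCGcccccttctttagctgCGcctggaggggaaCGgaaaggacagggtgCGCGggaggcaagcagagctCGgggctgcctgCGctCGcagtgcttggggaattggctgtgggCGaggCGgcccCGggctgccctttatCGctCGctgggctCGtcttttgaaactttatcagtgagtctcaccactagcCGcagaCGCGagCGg
Wnt16 (chr6:22288027-22288256, plus strand): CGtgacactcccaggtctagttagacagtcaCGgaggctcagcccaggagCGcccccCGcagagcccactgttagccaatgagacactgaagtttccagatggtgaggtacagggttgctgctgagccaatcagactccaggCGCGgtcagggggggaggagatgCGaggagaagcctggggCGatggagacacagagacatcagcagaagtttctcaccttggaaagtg
Sfrp5 (chr19:42202223-42202452, minus strand): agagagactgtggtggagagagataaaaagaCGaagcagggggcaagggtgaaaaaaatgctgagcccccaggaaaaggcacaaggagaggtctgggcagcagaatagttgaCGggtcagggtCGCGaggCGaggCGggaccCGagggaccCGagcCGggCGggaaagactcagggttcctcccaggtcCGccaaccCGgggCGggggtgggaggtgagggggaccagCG
In these 230 bases the upstream Tcf7l2 promoter held 26 CpG at 71.3% G+C, and the downstream one 5 CpG at 40.9% G+C. Axin2 held 28 CpG and Fzd7 19. The middle Wnt5b promoter held only 3, although it led the ligands open in all 4 libraries by that measure. The 3 promoters open in the BPA pair alone held 22 CpG for Wnt2, 8 for Wnt16 and 14 for Sfrp5.

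Of the 44 genes, 27 were open in all 4 libraries, which is 61.4% beside 57.9% of all coding genes. A further 12 were open in some libraries, 27.3% beside 11.7% of coding genes, and 5 in none, 11.4% beside 30.4%. Among the 20000 best peaks of each list, 8 of the 44 were open in all 4 libraries and 23 in none, beside 40.2% and 43.4% of coding genes, so most of the promoter peaks of the set lay outside the strongest peaks. With −log10 q of at least 5, 20 were open in all 4, beside 54% of coding genes. By summits alone 19 were, beside 50.9%, and with lists cut to equal numbers of peaks 23, beside 56.8%. With all peaks, the number open was 30 in control 1 and 28 in control 2, where 62.6% and 61.4% of coding genes were open. It was 33 in BPA 1 and 39 in BPA 2, where 64.1% and 67.4% of coding genes were open. The mean was 29.0 ± 1.41 genes in the controls and 36.0 ± 4.24 in the BPA libraries (SD, n = 2 each), and the groups did not overlap. The whole range between the BPA libraries, 33 to 39, was nearly as wide as the gap between the means.

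**Figure D1:**
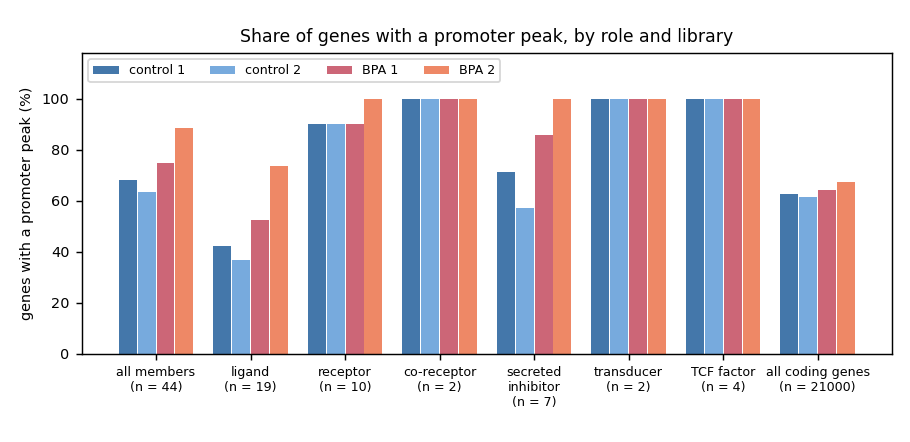
Percent of genes with a promoter peak in each library (bars; blue controls, red BPA), for the 44 genes, each role and all coding genes. Receptors, co-receptors, transducers and TCF factors stood at 90% or above in every library, and ligands at 14 of 19 in BPA 2 but 7 of 19 in control 2.

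The roles differed in how many of their genes were open. Both co-receptors, both transducers and all 4 TCF factors were open in every library, and so were 9 of the 10 Frizzled receptors. Of the 7 secreted inhibitors, 4 were open in every library. Of the 19 ligands, 6 were open in every library, 8 in some and 5 in none. These were 31.6%, 42.1% and 26.3%, beside 57.9%, 11.7% and 30.4% of coding genes. All 5 genes of the set without a promoter peak in any library were ligands. Without BPA 2 the number open in none would be 10, the others being those with a peak in BPA 2 alone.

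The ligands open in all 4 libraries were Wnt2b, Wnt4, Wnt5a, Wnt5b, Wnt9a and Wnt11. Wnt5b was the ligand whose weakest rank was the best, at 25.7% and 20.4% in the controls and 18.6% and 18.1% in the BPA libraries. Wnt11, like Wnt5b a ligand known mainly for signalling without β-catenin, ranked at 11.7% and 39.9% in the controls and 31.9% and 21.6% in the BPA libraries, so its groups overlapped. Wnt5a, another ligand of that kind, ranked at its first start at 50.5% and 47.9% in the controls and 54.6% and 37.8% in the BPA libraries, and in BPA 1 its second start ranked better, at 49.4%. Wnt4 ranked at 64.8%, 45.6%, 56.7% and 35.6% and Wnt9a at 39.7%, 68.9%, 51.7% and 15.0% in control 1, control 2, BPA 1 and BPA 2, with overlap in both cases. Wnt2b differed most between the groups among these ligands, at 85.3% and 85.6% in the controls and 25.5% and 21.0% in the BPA libraries. Its peak was 1098 and 259 bp wide in the controls and 1146 and 1438 bp in the BPA libraries.

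Ligands open in part of the libraries were Wnt1, Wnt2, Wnt3, Wnt3a, Wnt6, Wnt9b, Wnt10b and Wnt16. Wnt1, the founding member of the family, had no promoter peak in control 1 and ranked at 55.5% in control 2, 28.2% in BPA 1 and 25.4% in BPA 2. Wnt9b lacked a promoter peak only in control 2, and ranked at 55.1%, 84.3% and 40% in control 1, BPA 1 and BPA 2. The nearest control 2 peak had its edge 912 bp from the Wnt9b start and ranked better than these, at 34.0%. With 1000 bp either side, Wnt9b would be open in all 4 libraries. Wnt6, whose protein is made in many epithelia, had strong peaks in 1 library of each group, at 7.30% in control 1 and 12.9% in BPA 2. In control 2 and BPA 1 the nearest peak edge lay 1036 and 1025 bp from the Wnt6 start, and those peaks ranked at 3.80% and 10.4%, so a strong peak lay near the start in all 4 libraries. Wnt3, Wnt3a and Wnt10b were open only in BPA 2, at 97.0%, 80.4% and 96.1%, in the weakest part of the longest list. For Wnt10b the nearest peaks of the other 3 libraries lay 2072 to 2107 bp from the start.

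The ligands without a promoter peak in any library were Wnt7a, Wnt7b, Wnt8a, Wnt8b and Wnt10a. They differed in how far the nearest peak was. For Wnt7b it lay 787 to 1191 bp from a start in the 4 libraries and ranked between 16.6% and 49.6%, so a promoter of 1000 bp either side would make it open in control 1 and BPA 2. For Wnt10a the nearest peak was 2336 to 7316 bp away and for Wnt8a 3387 to 3725 bp. For Wnt8b it was 17.3 to 17.9 kb and for Wnt7a 29.2 to 29.3 kb away. Neither of these distances changed by more than 1 kb between libraries. For Wnt8b, however, they belonged to different peaks. The nearest peak was downstream of the start in control 1 and BPA 1 and upstream of it in control 2 and BPA 2.

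**Figure D2:**
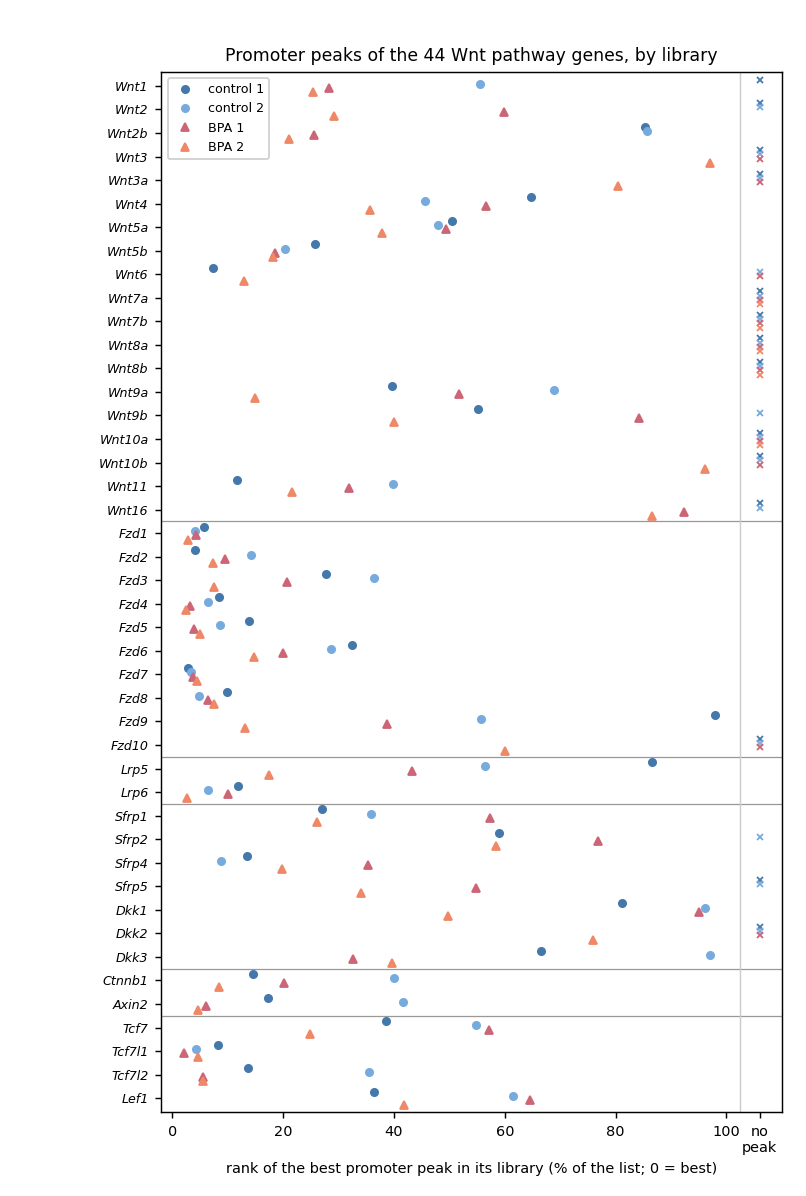
Rank of the best promoter peak of each of the 44 genes in each library (x axis, percent of that library's list, 0 the best; circles controls, triangles BPA; crosses on the right, no promoter peak), with the roles parted by lines in the order ligands, receptors, co-receptors, inhibitors, transducers, TCF factors. Most receptors lie at the left, Fzd7 between 2.89% and 4.49% in all 4 libraries, while ligands spread over the whole axis and 5 of them have crosses only.

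Frizzled receptors were among the best-ranked genes of the set. Fzd7 had peaks at 2.89% and 3.37% in the controls and 3.71% and 4.49% in the BPA libraries. Fzd1 ranked at 5.73%, 4.04%, 4.27% and 2.77% in control 1, control 2, BPA 1 and BPA 2. Fzd8 lay between 4.83% and 9.96% and Fzd2 between 4.05% and 14.2%, and for Fzd1, Fzd2 and Fzd8 the groups overlapped. Fzd4, which binds the ligand Norrin besides Wnts, ranked at 8.50% and 6.40% in the controls and 3.2% and 2.46% in the BPA libraries. Fzd5 ranked at 13.9% and 8.63% in the controls and 3.86% and 5.04% in the BPA libraries. Fzd3 and Fzd6, receptors known for planar cell polarity, lay lower, Fzd3 at 27.8% and 36.4% against 20.7% and 7.61%, and Fzd6 at 32.4% and 28.6% against 20% and 14.8%. Fzd9 had the widest range, from 97.9% and 55.7% in the controls to 38.7% and 13.1% in the BPA libraries. Fzd10 was open only in BPA 2, at 60%, and the nearest peaks of the other libraries were 16.4 to 21.5 kb away. The median rank over the 9 receptors open in all 4 libraries was 9.96% and 8.63% in the controls and 6.47% and 7.29% in the BPA libraries. Over all coding promoters open in all 4 libraries it was 8.46%, 9.77%, 8.44% and 5.94%.

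The co-receptors differed in rank. Lrp6 had peaks at 11.8% and 6.53% in the controls and 10.1% and 2.66% in the BPA libraries, which overlap. Lrp5 had peaks at 86.5% and 56.5% in the controls and 43.2% and 17.5% in the BPA libraries, with no overlap. In each library the Lrp6 peak ranked better than that of Lrp5.

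Among the inhibitors, Sfrp proteins bind Wnt ligands in the extracellular space, while Dkk1 and Dkk2 bind Lrp5 and Lrp6. Sfrp4 ranked best among them except in BPA 1, at 13.5% and 8.74% in the controls and 35.3% and 19.8% in the BPA libraries, and was 1 of 2 genes with both controls ahead of both BPA libraries. Sfrp1 ranked at 27.1%, 35.9%, 57.3% and 26.2% in control 1, control 2, BPA 1 and BPA 2, with overlap. Sfrp2 lacked a peak in control 2 and lay at 59.0%, 76.9% and 58.4% in control 1, BPA 1 and BPA 2. Dkk1 was open in every library but weak, at 81.2% and 96.2% against 95.1% and 49.8%. Dkk3, a divergent member of its family, ranked at 66.6% and 97.1% in the controls and 32.7% and 39.7% in the BPA libraries. Dkk2 was open only in BPA 2, at 76.0%.

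The transducers were open throughout. Ctnnb1 ranked at 14.5% and 40.1% in the controls and 20.2% and 8.38% in the BPA libraries, which overlap. Axin2, a scaffold of the complex that breaks down β-catenin and itself a target of the pathway, ranked at 17.3% and 41.7% in the controls and 6.01% and 4.57% in the BPA libraries. Both BPA libraries were ahead of both controls for Axin2, and the controls themselves were far apart.

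Among the TCF factors, Tcf7l1, which acts mostly as a repressor, had the best ranks, at 8.22% and 4.37% in the controls and 2.06% and 4.62% in the BPA libraries. Tcf7 lay at 38.5%, 54.9%, 57.1% and 24.9% and Lef1 at 36.4%, 61.4%, 64.6% and 41.8% in the same order, and for these 3 factors the groups overlapped. Tcf7l2, the main TCF factor of many adult tissues, ranked at 13.7% and 35.5% in the controls and 5.54% and 5.63% in the BPA libraries.

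Promoters open in the BPA pair and in neither control were those of Wnt2, Wnt16 and Sfrp5, 3 of 44 or 6.82%, beside 2.51% of coding genes. No gene of the set was open in both controls and neither BPA library, which held for 0.433% of coding genes. Wnt2, whose protein can signal through β-catenin, ranked at 59.9% in BPA 1 and 29.2% in BPA 2. Both controls had a peak nearby, with edges 1109 and 890 bp from the start and ranks of 23.2% and 32.7%, and the BPA 2 peak spanned 2146 bp with its summit 1412 bp upstream of the start. With 1000 bp either side, Wnt2 would be open in control 2 as well. Wnt16 had weak peaks in the BPA libraries, at 92.3% and 86.6%, and the nearest control peaks were 1817 and 7266 bp away. Sfrp5 ranked at 54.9% and 34.0%, with the nearest control peaks 8521 and 2418 bp away. The same pattern was shown by 5 of the 7 endothelial markers, at ranks from 8.44% to 35.4%, and the part of cell composition in the 3 promoters was not tested. The count was 5 with control 1 left out and 8 with BPA 1 left out, beside 4.61% and 4.66% of coding genes. It was 2 among the best 20000 peaks, 2 with equal numbers of peaks and 2 with 1000 bp either side. The shares of coding genes were then 4.83%, 2.69% and 2.39%.

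Of the 27 promoters open in all 4 libraries, 11 had both BPA ranks ahead of both control ranks, which is 40.7%, and the share over coding promoters open in all 4 was also 40.7%. The 11 were Wnt2b, Wnt5b, Fzd3, Fzd4, Fzd5, Fzd6, Fzd9, Lrp5, Dkk3, Axin2 and Tcf7l2. The controls were ahead for Fzd7 and Sfrp4, 2 of 27 or 7.41%, beside 18.7% of coding promoters. With 1 library left out, the BPA side was ahead for 17 without either control and 20 without BPA 1, beside 55.0%, 50.7% and 59.5% of coding promoters. A rank in the whole list also depends on what else the list holds, so the promoters were ranked again among the 12166 coding promoters open in all 4 libraries. On that scale 8 promoters had both BPA libraries ahead, namely Wnt2b, Fzd3, Fzd4, Fzd5, Fzd9, Dkk3, Axin2 and Tcf7l2, which is 29.6% of the 27 beside 30.7% of coding promoters. The controls were ahead for 6, namely Wnt5a, Wnt11, Fzd7, Sfrp1, Sfrp4 and Lef1, or 22.2% beside 29.7%. Wnt5b, Fzd6 and Lrp5 thus kept no group order on this scale. The median of the 27 was 82.7% and 86.0% in the controls and 82.6% and 85.5% in the BPA libraries, where 50% is the middle of all coding promoters open in all 4.

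**Figure D3:**
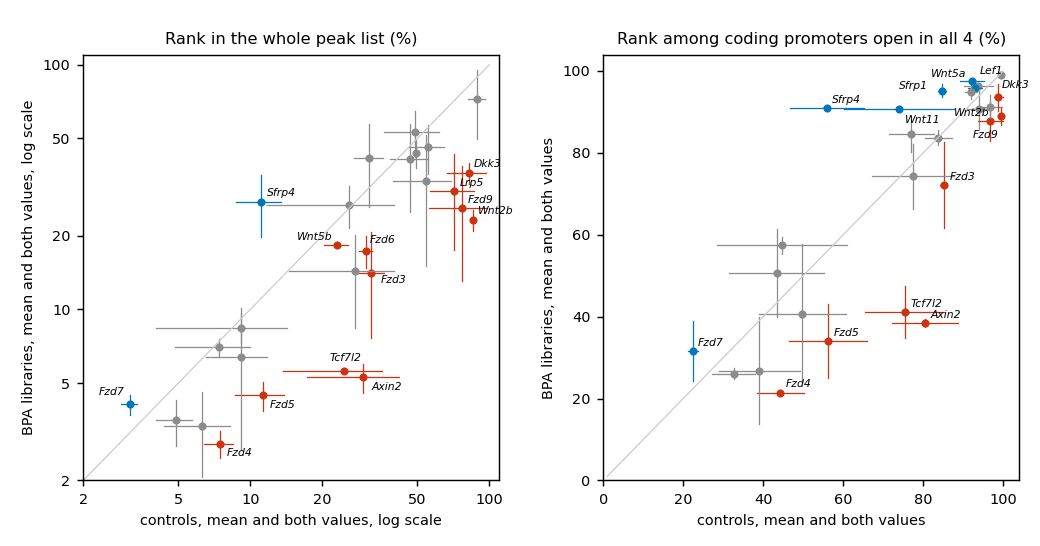
Control ranks against BPA ranks of the 27 promoters open in all 4 libraries, in the whole peak list (left, log axes) and among the 12166 coding promoters open in all 4 (right), in percent with 0 the best. Points are means of 2 libraries, lines join both values, red marks both BPA libraries ahead and blue both controls ahead; Tcf7l2 and Axin2 lie well under the diagonal on both scales and Sfrp4 above it.

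On the scale of coding promoters, Tcf7l2 stood at 65.5% and 85.3% in the controls and 34.7% and 47.6% in the BPA libraries. Axin2 stood at 72.3% and 88.6% in the controls and 37.4% and 39.5% in the BPA libraries. Fzd4 stood at 50.2% and 38.4% against 20.9% and 22.0%. Sfrp4 went the other way, from 65.1% and 46.8% in the controls to 91.3% and 90.4% in the BPA libraries. Fzd4 and the endothelial markers Tek and Kdr moved in the same direction in the whole list, Tek from 90.3% and 39.1% to 16.6% and 11.7% and Kdr from 32.4% and 33.0% to 14.6% and 11.3%, and the part of endothelial cells in the Fzd4 difference was not tested. Of the adipocyte markers, Cebpa and Pparg had both BPA libraries ahead, Cebpa going from 15.7% and 14.9% in the controls to 5.54% and 4.42%, and Pparg from 43.2% and 33.8% to 15.8% and 7.16%. Adipoq, Plin1, Cidec, Lep and Fabp4 overlapped between the groups.

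Several genes have more than 1 curated start, and these were not open alike. Wnt5b has 3. The middle one gave the ranks above, the most upstream one was open in all 4 libraries at 35.5%, 67.1%, 35.4% and 18.6%, and the most downstream one was open in the BPA pair alone, at 46.9% and 41.9%. Of the 2 starts of Wnt11, the downstream one was open in all 4 libraries and the upstream one in the BPA pair alone, at 51.8% and 59.6%. The second start of Wnt5a lacked a peak in control 2. The start of Lef1 farthest into the gene had a peak only in control 1, at 97.8%, near the end of the list. The BPA-only starts of Wnt5b and Wnt11 were also the only 2 of the 40 start regions of the set with a known sequence that held the TCF core motif CTTTGAT on either strand within 250 bases before and 50 bases after the start. Over all coding promoters with a sequence 3.21% held it. In Wnt5b the motif lay upstream of the start and outside the merged BPA-only region (chr6:119448779-119449334). In Wnt11 it lay inside the merged BPA-only region (chr7:98834935-98835516). They are printed below, chosen after their values were seen, with the TCF core in capitals, and in Wnt11 also the letters TATAAA.
Wnt5b, downstream start (chr6:119449357-119449586, minus strand): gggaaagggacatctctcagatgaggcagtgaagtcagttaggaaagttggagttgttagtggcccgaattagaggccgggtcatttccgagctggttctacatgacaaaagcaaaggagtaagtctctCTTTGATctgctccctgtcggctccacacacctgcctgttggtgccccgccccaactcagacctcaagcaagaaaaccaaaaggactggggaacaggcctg
Wnt11, upstream start (chr7:98834912-98835141, plus strand): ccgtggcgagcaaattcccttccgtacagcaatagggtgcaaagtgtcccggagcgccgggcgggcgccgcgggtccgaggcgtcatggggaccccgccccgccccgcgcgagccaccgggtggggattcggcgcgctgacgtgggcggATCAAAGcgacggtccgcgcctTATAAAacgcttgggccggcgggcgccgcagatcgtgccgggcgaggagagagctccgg
A match of these letters is a description of the sequence and does not show that a TCF factor was bound.

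The promoters of the set were rich in G+C. RefSeq promoter sequences, on GRCm38 and 300 bases long, were matched for 31 of the 44 genes, with a median of 71.3% G+C and a CpG observed over expected of 0.81. The medians over 16853 coding genes were 56.7% and 0.596. For the 17 matched genes open in all 4 libraries the median was 75.3% G+C, beside 61.3% over the coding genes open in all 4. For the 12 matched genes open in some libraries it was 66.2%, beside 56.0%. The 2 matched genes open in none, Wnt7a at 76.0% and Wnt8b at 48.3%, stood far apart. The AP-1 motif TGANTCA was in 1 of the 40 start regions, upstream Wnt5b, beside 7.11% of all, and TATAAA on either strand was in 8 of 40, beside 12.4%. The latter were starts of Ctnnb1, Dkk1, Dkk2, Fzd1, Lef1, Tcf7, Tcf7l2 and Wnt11, and in Tcf7l2 it was the downstream start.

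Beyond promoters, each gene's window ran from 20 kb upstream of its first start to the end of the gene. Overlapping peaks of the 4 libraries were merged, which gave 269 distinct regions in the 44 windows, of which 45 touched a promoter of the set, 4 touched a promoter of another gene, 171 lay in a gene and 49 lay between genes. Neighbouring genes, namely Wnt1 and Wnt10b, Wnt3 and Wnt9b, Wnt3a and Wnt9a, and Wnt6 and Wnt10a, have windows that overlap, and shared regions were counted once. All 44 windows held at least 1 region, while 3076 of the 21000 coding windows held none. The median density was 11.1 regions per 100 kb, and 4.24 with a peak in all 4 libraries, beside 8.25 and 2.90 over all coding genes. Axin2 had 21.8 regions per 100 kb, Tcf7l1 17.0, Tcf7l2 15.6 and Lef1 5.22.

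Of the 269 regions, 94 had a peak in all 4 libraries, which is 34.9% beside 30.1% of the regions in all coding windows. A further 32 had a peak in both BPA and neither control library, 11.9% beside 9.72%. The reverse was found for 7, 2.60% beside 4.64%, and 90 regions were seen in 1 library alone, 33.5% beside 35.6%. These counts depended on the number of libraries. With 1 left out, BPA-only regions numbered 41 to 73, the most without BPA 1, and control-only regions 8 to 25, the most without control 2. When peaks had to be reproducible within a group, they numbered 18 and 4. Away from all promoters, with all libraries, the counts were 59, 27 and 6 of 220 regions. These were 26.8%, 12.3% and 2.73%, beside 20.6%, 10.8% and 5.36% over all coding windows. Of the 59 regions away from promoters with a peak in all 4 libraries, 19 had both BPA ranks ahead, 32.2% beside 22.7% in coding windows, and 17 had both control ranks ahead, 28.8% beside 30.5%.

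Regions of the BPA pair alone were spread over the roles. There were 8 of 80 in ligand windows, 3 of 25 in receptor windows, 5 of 41 in co-receptor windows, 4 of 27 in inhibitor windows, 1 of 18 in transducer windows and 11 of 78 in the windows of TCF factors. Over all coding windows the share was 9.72%. The 7 control-only regions lay in the windows of Axin2, Ctnnb1, Dkk2, Dkk3, Fzd3, Fzd4 and Lrp6, 1 in each, and none in ligand or TCF factor windows. In the Fzd3 window the control-only region was the promoter of a neighbour, Fbxo16, with ranks of 8.62% and 21.3%.

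The BPA-only regions away from promoters with the best ranks lay in introns. One in intron 3 of Tcf7l1 (chr6:72662810-72663646) ranked at 32.2% and 28.2%. One in intron 3 of Tcf7l2 (chr19:55781326-55782135) ranked at 32.9% and 33.9%, and one in intron 1 of Lrp5 (chr19:3668676-3669702) at 34.2% and 33.3%. Away from promoters, the best control-only region lay in intron 12 of Lrp6 (chr6:134470785-134471165), at 27.3% and 34.8%. It was followed by one in an exon of Axin2 (chr11:108949173-108950226), at 41.8% and 72.6%, and one in the Fzd4 window within intron 1 of the neighbouring gene Tmem135 (chr7:89388625-89389363), at 78.5% and 38.6%.

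Away from promoters, the regions open in all 4 libraries with the best ranks lay in intron 1 of Lrp5, intron 4 of Tcf7l2, intron 1 of Lrp6 and upstream of Wnt11 and Wnt6. The Lrp5 region (chr19:3680865-3681809), 5282 bp into the gene, ranked at 13.6%, 5.53%, 11.6% and 15.0% in control 1, control 2, BPA 1 and BPA 2. In every library it ranked better than the Lrp5 promoter. The Lrp6 region (chr6:134555754-134556954) ranked between 18% and 23.8%. The Wnt11 region (chr7:98814914-98816742), 19044 bp upstream of a start, ranked at 27.4% and 24.1% in the controls and 8.38% and 7.79% in the BPA libraries, with no overlap. The Wnt6 region (chr1:74759638-74760719), 11892 bp upstream, ranked at 26.1%, 6.14%, 24.0% and 28.3%.

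Tcf7l2 lies on the plus strand of chromosome 19 and has 25 curated transcripts from 2 start sites that are 153511 bp apart. Of these, 24 begin at the upstream start, position 55741810, and 1 at the downstream start, position 55895321. Both starts were open in all 4 libraries. At the upstream start, −log10 q was 18.7 and 10.8 in the controls and 73.7 and 178 in the BPA libraries, for peaks of 1796, 1031, 901 and 3344 bp. The downstream start ranked at 48.4% and 85.3% in the controls and 35.8% and 34.2% in the BPA libraries. The upstream start thus ranked better than the downstream one in each library, and both were ahead in the BPA pair. The merged region at the upstream start, 3542 bp wide, also lay within 500 bp of a start of the gene Gm31734. Peaks carry no strand, so the region cannot be given to 1 gene alone.

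**Figure D4:**
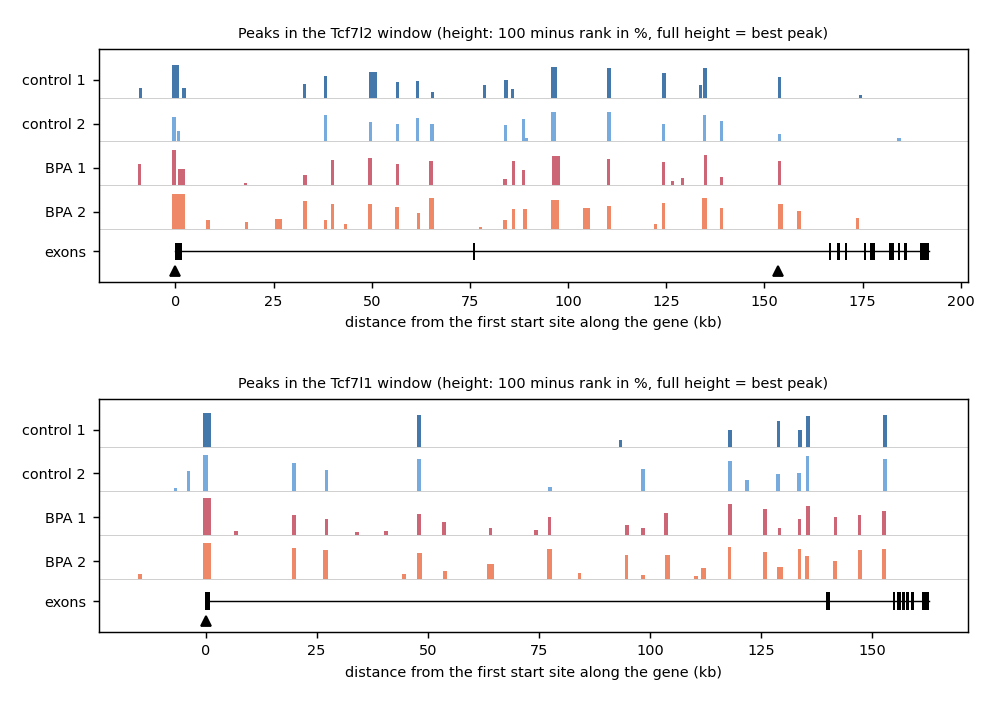
Peaks of each library along Tcf7l2 (top) and Tcf7l1 (bottom), by distance in kb from the first start in the direction of the gene; bar height is 100 minus the rank in percent, black blocks are exons of the longest curated transcript and triangles the start sites, and features too narrow to see were widened. Tcf7l2 peaks recur in all 4 libraries between its starts, and Tcf7l1 has 7 regions with bars in both BPA rows and in neither control row.

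The Tcf7l2 window of 212 kb held 33 regions, 10 with a peak in all 4 libraries, 2 in the BPA pair alone, none in the control pair alone and 14 in 1 library. Over all coding windows these classes held 30.1%, 9.72%, 4.64% and 35.6% of regions. The controls had peaks in 18 and 15 of the 33 Tcf7l2 regions, and the BPA libraries in 19 and 26. Most lay in 2 long introns of the longest transcript. Intron 3, of 74.6 kb, held 11 regions, 3 of them in all 4 libraries and both BPA-only regions. Intron 4, of 90.6 kb, held 16 regions, 5 of them in all 4 libraries.

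The intron 3 regions open in all 4 libraries had their summits 49756, 56431 and 65240 bp from the upstream start. They ranked at 34.1%, 50.5%, 28.1% and 34.1%, then at 62.6%, 55.8%, 45.4% and 42.9%, and then at 89.9%, 56.5%, 35.6% and 17.2% in control 1, control 2, BPA 1 and BPA 2. The BPA pair was ahead in all 3, in the first by less than the rounding between control 1 and BPA 2. The BPA-only regions of this intron lay 17945 and 39978 bp from the start, the first weak, at 98.3% and 83.8%. The 5 regions of intron 4 went both ways. Those 69295, 57271 and 43163 bp before the downstream start had both controls ahead, at 55.5% and 60% against 86.6% and 78.8%, at 18.7% and 21.5% against 23.5% and 22.6%, and at 22.7% and 23.8% against 30.9% and 38.9%. The region 29131 bp before that start overlapped between the groups, at 36.4%, 56.8%, 39.3% and 31.8%. The one 18586 bp before it had the BPA pair ahead, at 22.3% and 30.9% against 20% and 18%.

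Tcf7l1, a gene of similar size, had 31 regions in its 183 kb window, 7 with a peak in all 4 libraries, 7 in the BPA pair alone and none in the control pair alone. Over all coding windows these classes held 30.1%, 9.72% and 4.64% of regions. The 7 BPA-only regions of Tcf7l1 were 5 in intron 3 and 2 in intron 5. Their ranks ran from 32.2% to 87.1% in BPA 1 and from 23.8% to 83.4% in BPA 2. Tcf7 had 2 BPA-only regions among 7, both in intron 3. Lef1 had none, and its 7 regions were seen in 6 cases in control 1, in 3 in control 2, in 1 in BPA 1 and in 3 in BPA 2.

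The sequences below are the 100 bases around the summit of 4 intron regions of TCF factors, on the plus strand of GRCm38. The strongest Tcf7l2 intron region and the best-ranked BPA-only one are shown for their ranks, and the others because they held an AP-1 motif (TGANTCA, read once per position since it equals its reverse complement), which is in capitals where present.
Tcf7l2 intron 4, all 4 libraries (chr19:55838001-55838100): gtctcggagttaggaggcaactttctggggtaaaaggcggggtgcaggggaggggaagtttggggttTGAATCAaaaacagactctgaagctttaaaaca
Tcf7l2 intron 3, BPA pair alone (chr19:55781739-55781838): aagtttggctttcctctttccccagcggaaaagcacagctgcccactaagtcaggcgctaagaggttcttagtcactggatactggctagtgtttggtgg
Tcf7l1 intron 5, BPA pair alone (chr6:72647410-72647509): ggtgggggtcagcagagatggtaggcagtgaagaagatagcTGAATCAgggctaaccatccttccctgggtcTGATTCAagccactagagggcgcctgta
Tcf7 intron 3, BPA pair alone (chr11:52262078-52262177): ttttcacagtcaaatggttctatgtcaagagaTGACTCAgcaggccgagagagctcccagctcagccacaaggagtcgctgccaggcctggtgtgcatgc
The motif stood at 1 position in the Tcf7l2 intron 4 and Tcf7 regions and at 2 positions in the Tcf7l1 region. Over the windows of the set it was in 3 of 59 regions open in all 4 libraries and away from promoters, 5.08% beside 6.60% in all coding windows, and in 2 of 27 BPA-only regions, 7.41% beside 6.88%. The TCF core CTTTGAT was in none of these 59 or 27 regions, where coding windows had it in 0.995% and 1.11%.

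Among 51 other genes of the pathway, from a list drawn up by function, 41 were open in all 4 libraries and 6 in none, where 57.9% and 30.4% of all coding genes were. All 11 genes of the destruction complex and the Dishevelled family were open in every library, with Gsk3b, the kinase that marks β-catenin for breakdown, at 0.879%, 0.779%, 0.372% and 0.374% in control 1, control 2, BPA 1 and BPA 2. Of 3 genes for ligand secretion, Porcn, which attaches the lipid, and Wls, which carries Wnts to the surface, were open in every library, Wls between 6.26% and 15.4%. Of 9 genes of the R-spondin axis, which controls the number of Frizzled receptors at the surface, 6 were open in all 4, Lgr4 between 0.689% and 1.61%, and Rspo4 in none. Of 6 other receptors and 9 other inhibitors, 5 and 6 were open in all 4. Of 8 co-factors of β-catenin and the TCF factors, 7 were open in all 4, Tle4 between 0.177% and 0.605%, and Tle2 in none. Of the 51 genes, 1 was open in the BPA pair alone, as were 2.51% of coding genes. No gene of the list was open in the control pair alone, as were 0.433% of coding genes.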

How the data were processed

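Per the labels and the study's methods, the authors trimmed reads with Trim Galore, mapped them to mm10 with Bowtie2 2.3.5.1, allowing fragments of up to 2 kb, kept uniquely mapped reads, removed duplicates with SAMtools and called peaks with MACS2 2.2.7.1 on each library alone. Other options of the peak caller were not given in the sources used here. Each deposited list gives a score, which was not used for ranking, a fold of summit pile-up over local background (a ratio), and a −log10 p-value and −log10 q-value for each peak. Ranks are mean-tie ranks of the −log10 q-value within a list. Local backgrounds were solved from fold and p-value, which matched in 100% of the 1935 to 2021 peaks tried per library within a relative tolerance of 0.001. Precision is limited by the unknown read totals and by 2 libraries per group, which the labels do not tie to separate litters.

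Start sites came from 45756 curated RefSeq transcripts on GRCm38. Peaks overlapping by 1 bp or more were merged across libraries. The pipeline was tested on simulated peaks with known answers. Python 3.11.15, numpy 2.4.6, scipy 1.17.1, pandas 2.3.3 and samtools 1.23.1 were used. The members, the other pathway genes and the marker lists were chosen with earlier results of these data known. One listed marker is not reported here. The genes named are all members, and the regions named are, away from promoters, the best 3 of each group-only class and the best 5 open in all 4 libraries by their worst rank, with the regions of Tcf7l2 in full. No group difference was tested. Alternatives were other peak filters, promoter widths, windows and peak definitions, and leaving out each library. The re-ranking among coding promoters was chosen after seeing the data. Promoter sequences for 13 members were not analysed here: Dkk3, Fzd2, Fzd3, Fzd6, Fzd8, Lrp5, Lrp6, Sfrp1, Sfrp4, Wnt10a, Wnt5a, Wnt7b and Wnt8a.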

Additional observations from a re-analysis of the deposited data

How the results depend on the processing

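Of 84 values recomputed under the alternatives, 57 stayed within 1.5 times the reported count, or within 1 SD for a difference, and 27 moved further. Counts have no direction to change. Only the difference in the mean number of open genes could change direction, and it did so in 0 settings. Genes of the set open in no library, 5 as reported, numbered 8 with −log10 q of at least 5, 23 among the best 20000 peaks, 9 with lists cut to equal numbers of peaks, 9 by summits alone, and 5 to 10 with each library left out. The shares of coding genes in the same order were 32.6%, 43.4%, 32.0%, 33.1%, and 30.6% to 32.5%, beside 30.4% as reported. Those open in all 4, 27 as reported, numbered 20 with −log10 q of at least 5 and 8 among the best 20000 peaks. They numbered 23 with equal numbers of peaks, 19 by summits alone, and 27 to 29 with a library left out. The shares of coding genes in the same order were 54%, 40.2%, 56.8%, 50.9%, and 58.1% to 60%, beside 57.9% as reported. Promoters open in the BPA pair alone, 3 as reported, numbered 3 to 8 with a library left out, beside 2.70% to 4.66% of coding genes. They numbered 2 among the best 20000 peaks, beside 4.83%, 2 with equal numbers of peaks, beside 2.69%, and 2 with 1000 bp either side, beside 2.39%. With −log10 q of at least 5 they numbered 4, beside 3.57%, and by summits alone 3, beside 2.7%. In every setting 0 were open in the control pair alone, beside 0.224% to 1.12% of coding genes. BPA-only regions, 32 as reported, numbered 7 among the best 20000 peaks, 18 by reproducible peaks and 41 to 73 with a library left out. Control-only regions, 7 as reported, numbered 2 with −log10 q of at least 5, 4 among the best 20000 peaks, 4 without the upstream 20 kb, 4 by reproducible peaks and 8 to 25 with a library left out. For regions, shares over all coding windows were not computed under the alternatives. Promoters with both BPA ranks ahead, 11 as reported, numbered 7 with −log10 q of at least 5, beside 39.7% of coding promoters. With a library left out they numbered 12 to 20, beside 43.4% to 59.5%. Promoters with both controls ahead, 2 as reported, numbered 6 when ranked among coding promoters, beside 29.7% of these. With a library left out they numbered 2 to 5, beside 21.9% to 32.7%. The difference in the mean number of open genes, 7 as reported, ran from 5 to 8.5, and from 4 to 10 with a library left out. Control 1, control 2 and BPA 1 each moved a count by over 1.5 times when left out, and so did BPA 2. The rank alternatives were chosen after seeing the data. No paired analysis was possible because no test was made and the shared replicate numbers are not said to tie libraries together. Depth is unknown, so an absent peak is a peak not called at that library's depth.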

Other observations

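Among 5 genes known as targets of the pathway in other tissues, Myc, Sp5, Ccn4 and Ccn5 were open in all 4 libraries, and Ccnd1, which encodes cyclin D1, in the BPA pair alone, at 58.2% and 62.6% of the lists. Ccnd1 was the only 1 of the 51 other pathway genes with that pattern, which 2.51% of coding genes had. Ccn5, a secreted matrix protein, ranked at 16.3% and 32.9% in the controls and 66.6% and 51.6% in the BPA libraries, the direction opposite to Axin2. Ccn4, at 29.2%, 50.8%, 31.2% and 46.3% in control 1, control 2, BPA 1 and BPA 2, and Myc, at 9.98%, 26.4%, 10.6% and 8.45%, showed no common direction. Sp5 ranked at 37.8%, 42.6%, 70.0% and 41.3%.

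Ror1, a co-receptor for Wnt5a, ranked at 18.5% and 13.8% in the controls and 5.50% and 5.04% in the BPA libraries. Wif1, a secreted inhibitor that binds Wnt ligands, lay between 7.6% and 10.9% in all 4 libraries, ahead of every Sfrp and Dkk gene in each library except Sfrp4 in control 2. Bcl9l, a co-factor of β-catenin, went from 62.6% and 58.2% in the controls to 17.5% and 12.4% in the BPA libraries. Both BPA ranks were ahead for 40.7% of coding promoters open in all 4 libraries, and both control ranks for 18.7%. Tnks had both controls ahead, at 1.42% and 0.979% against 5.3% and 4.41%.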
